A study of Mus musculus with 4 samples.

Results

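The platelet-derived growth factor (PDGF) ligands and receptors were followed in cultured fat cells. The members were taken by gene symbol and are 7 of the 32285 genes counted: the receptors *Pdgfra* and *Pdgfrb*, the ligands *Pdgfa*, *Pdgfb*, *Pdgfc* and *Pdgfd*, and the receptor-like gene *Pdgfrl*. All 7 were detected in each of the 4 libraries. The libraries were made with the 10x Genomics 3′ v3.1 chemistry, which tags each captured RNA molecule with a unique molecular identifier (UMI). The cells came from chow-fed male C57BL/6J mice, and their age and number were not given in the sources used here. De-differentiated fat (DFAT) cells make up 2 of the libraries, iWAT_DFAT and eWAT_DFAT. These cells were derived by ceiling culture, in which floating adipocytes attach to the upper surface of a filled flask, from the inguinal (iWAT) and the epididymal (eWAT) white adipose depot. The iWAT_SVF and eWAT_SVF libraries hold the plated stromal vascular fraction (SVF) of the same depots, the pool from which adipose stem and progenitor cells are grown. All of the cells were grown in serum-containing medium, detached with trypsin, stained with 7-AAD, a dye that marks dead cells, and sorted. The labels name no surface marker for this sort, so other cells of the depot could remain in each culture.

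PDGF ligands are secreted as dimers that bring receptor chains together and switch on their tyrosine kinase domains. PDGF-A and PDGF-C act mainly through the alpha receptor, PDGF-D mainly through the beta receptor, and PDGF-B through both. PDGF-C and PDGF-D are released in a latent form and need proteolytic cleavage, whereas the A and B chains are processed inside the cell. In adipose tissue *Pdgfra* is the usual marker of fibroblast-like progenitors, *Pdgfrb* marks mural cells and a share of the progenitors, and endothelial PDGF-B recruits pericytes.

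Between 211396227 and 242282812 UMIs were counted per library. Cells were barcodes with 5000 to 75000 UMIs, 200 to 7500 genes and under 10% mitochondrial UMIs, which left 7629 cells in iWAT_DFAT, 6464 in eWAT_DFAT, 7424 in iWAT_SVF and 6745 in eWAT_SVF. The lower UMI limit of 500 in the study's methods left 7796, 6988, 7843 and 7353. Median depth was lowest in iWAT_DFAT, at 22111 UMIs per cell, against 24930 to 27617 in the other libraries. The median mitochondrial share was highest there, at 3.12% against 1.95% to 2.25%. Pairs of libraries shared 13 to 20 cell barcodes, at most 0.297% of a library. All 12 stromal markers, such as *Col1a1* and *Dcn*, were detected in every library, and their summed level was 9667, 3654, 9992 and 8696 counts per 1000000 UMIs (CPM) in iWAT_DFAT, eWAT_DFAT, iWAT_SVF and eWAT_SVF. Summed smooth muscle markers were 716, 6885, 13871 and 18058 CPM in the same order, and summed adipocyte markers were 395, 2283, 103 and 361 CPM, of which a single marker gave 327, 2132, 81.0 and 334 CPM. The summed lists of endothelial, mesothelial, pericyte, glial and immune markers stayed between 2.30 and 187 CPM.

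There was 1 library per group, so the spread within a group could not be measured and no test across samples was made. Each level is the sum of a gene's UMIs over the cells of a library per 1000000 UMIs, with an exact 95% Poisson interval. These intervals cover counting error only and not the spread between cultures. The 3′ chemistry counts each molecule once whatever its length, but capture can differ between genes, so each gene was compared with itself across libraries. In a sum over cells, fewer cells of a type and less RNA per cell cannot be told apart. A ratio was called past 2-fold when its log2 value was 1 or more in size and the gene reached 5 CPM in the higher library.

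*Pdgfra* and *Pdgfd*, a receptor and a ligand whose levels passed 2-fold between the inguinal DFAT and SVF libraries, are shown by the 250 bases before their transcription start, so that the levels below can be read beside each promoter. The sequences and their starts are from a set of RefSeq promoters (GRCm38.p6). The set at hand held starts for 4 of the 7 members, *Pdgfrl* not among them. The 2 starts used lie upstream of the gene starts given below, 75152292 for *Pdgfra* and 6168584 for *Pdgfd*. The *Pdgfra* window is chr5:75152001-75152250 and the *Pdgfd* window chr9:6168236-6168485, both on the plus strand, and capitals mark a TATAAA motif.
Pdgfra: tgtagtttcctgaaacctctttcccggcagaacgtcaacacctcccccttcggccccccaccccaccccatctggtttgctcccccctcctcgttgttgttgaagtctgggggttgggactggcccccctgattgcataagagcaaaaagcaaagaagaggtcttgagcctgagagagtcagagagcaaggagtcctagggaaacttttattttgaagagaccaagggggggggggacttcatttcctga
Pdgfd: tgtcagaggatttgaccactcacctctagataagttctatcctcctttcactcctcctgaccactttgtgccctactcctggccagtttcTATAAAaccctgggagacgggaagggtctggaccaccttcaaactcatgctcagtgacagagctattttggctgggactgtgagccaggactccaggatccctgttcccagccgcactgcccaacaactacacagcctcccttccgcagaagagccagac
Searched on both strands, the *Pdgfd* window held TATAAA at 160 bases before the RefSeq start and the *Pdgfra* window did not. TATAAA was present in 12.4% of 32851 promoter windows of this length. Neither window held CCAAT (33.8% of windows), GGGCGG (32.7%) or TGANTCA (6.75%), the letters bound by Fos and Jun dimers. Such matches describe letters and not bound sites.

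*Pdgfra*, the alpha receptor (chromosome 5, 75152292 to 75198215 on GRCm38), set one library apart. Its level was 246 CPM in iWAT_DFAT (95% interval 243 to 248), 95.2 in eWAT_DFAT (93.8 to 96.6), 84.5 in iWAT_SVF (83.2 to 85.8) and 82.5 in eWAT_SVF (81.2 to 83.8). The iWAT_DFAT library stood above the others, which lay close together. *Pdgfra* was 2.58-fold higher in iWAT_DFAT than in eWAT_DFAT (log2 ratio 1.37, interval 1.34 to 1.39) and 2.91-fold higher than in iWAT_SVF (log2 1.54, 1.51 to 1.57). In the epididymal depot the DFAT library was above the SVF library by a log2 ratio of 0.21 (0.18 to 0.24). The depots differed by a log2 ratio of 0.035 in SVF cells, and that sign turned with median ratio scaling and with the mean of each cell's CPM. Cells with 15000 to 35000 UMIs gave 1.36 and 1.54 for the 2 iWAT_DFAT ratios.

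*Pdgfrb*, the beta receptor, showed smaller differences, with the SVF libraries higher. It was counted at 97.5 CPM in iWAT_DFAT (96.1 to 98.99), 84.9 in eWAT_DFAT (83.5 to 86.2), 135 in iWAT_SVF (134 to 137) and 115 in eWAT_SVF (113 to 116). Both SVF libraries were above both DFAT libraries. The DFAT over SVF log2 ratio was -0.47 (-0.50 to -0.44) in the inguinal and -0.43 (-0.46 to -0.40) in the epididymal depot. The inguinal library was the higher of the depot pair in DFAT cells (log2 0.20, 0.17 to 0.23) and in SVF cells (0.24, 0.21 to 0.26). None of these passed 2-fold.

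Because both receptors were read in the same cells, the change of their balance between libraries does not depend on scaling. *Pdgfra* made up 71.6% of the receptor UMIs in iWAT_DFAT (exact Clopper-Pearson 95% interval 71.2 to 71.9), 52.9% in eWAT_DFAT (52.3 to 53.4), 38.4% in iWAT_SVF (38.0 to 38.9) and 41.8% in eWAT_SVF (41.4 to 42.3). Since capture can differ between the 2 genes, only the change of this share between libraries is read: it was higher in both DFAT libraries than in both SVF libraries. Free RNA, read from droplets of 1 to 100 UMIs, carried the same balance, with *Pdgfra* shares of 70.4%, 54.6%, 36.2% and 41.1% in that order.

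Receptor combinations per cell were counted after thinning each cell to 4000 UMIs, so that depth was equal. In iWAT_DFAT 38.7% of cells had *Pdgfra* only, 13.0% *Pdgfrb* only, 18.4% both and 29.9% neither. The eWAT_DFAT shares were 20.5%, 18.2%, 8.15% and 53.1%. For iWAT_SVF they were 14.8%, 26.6%, 11.03% and 47.6%, and for eWAT_SVF 16.4%, 24.2%, 9.18% and 50.2%. Cells with *Pdgfrb* only made up a larger share in both SVF libraries than in both DFAT libraries, and cells with *Pdgfra* only a smaller one. The exact binomial intervals of the share with both were 17.5 to 19.3, 7.50 to 8.85, 10.3 to 11.8 and 8.50 to 9.89, and those of eWAT_DFAT and eWAT_SVF overlapped. The product of the 2 receptors' shares was 17.9%, 7.55%, 9.71% and 8.54%, a little below the observed share with both in each library. The call of a cell depended on depth: without thinning, 64.6% to 78.7% of the cells held both receptors.

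**Figure D1:**
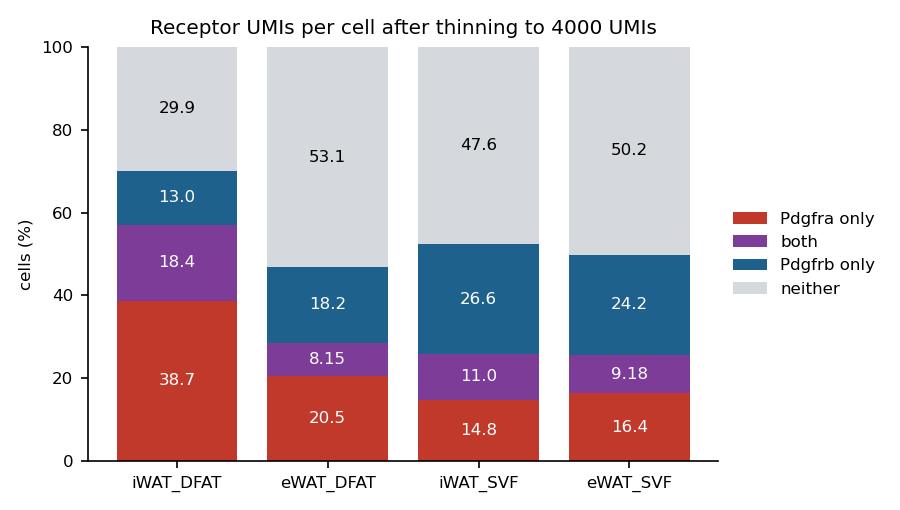
Stacked shares of cells (%, vertical axis) with a UMI of Pdgfra only, both receptors, Pdgfrb only or neither after thinning each cell to 4000 UMIs, for the 4 libraries. Cells with Pdgfra only make up 38.7% in iWAT_DFAT and 14.8% to 20.5% in the other libraries.

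*Pdgfrl*, which encodes a secreted receptor-like protein without a kinase domain (chromosome 8, 40926212 to 40990785), was lower in the DFAT libraries of both depots. It stood at 6.08 CPM in iWAT_DFAT (5.73 to 6.45), 7.98 in eWAT_DFAT (7.58 to 8.40), 27.8 in iWAT_SVF (27.1 to 28.6) and 19.1 in eWAT_SVF (18.5 to 19.8). The DFAT level was 4.58-fold below the SVF level in the inguinal depot (log2 -2.20, -2.29 to -2.10) and 2.40-fold below it in the epididymal depot (log2 -1.26, -1.35 to -1.17). The depot order was not shared: iWAT was below eWAT in DFAT cells (log2 -0.39) and above it in SVF cells (log2 0.54).

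Among the ligands, *Pdgfd*, the latent ligand of the beta receptor (chromosome 9, 6168584 to 6378850), had the same order as *Pdgfrl* between culture types. It was found at 35.6 CPM in iWAT_DFAT (34.7 to 36.5), 19.99 in eWAT_DFAT (19.4 to 20.6), 79.1 in iWAT_SVF (77.9 to 80.4) and 44.0 in eWAT_SVF (43.1 to 44.9). DFAT cells were 2.22-fold below SVF cells in iWAT (log2 -1.15, -1.20 to -1.11) and 2.20-fold below them in eWAT (log2 -1.14, -1.19 to -1.08). The inguinal library was 1.78-fold higher in DFAT cells (log2 0.83, 0.77 to 0.89) and 1.80-fold higher in SVF cells (log2 0.85, 0.81 to 0.89), just under the 2-fold line in both. With stromal-like cells only, the DFAT depot ratio passed that line, at 1.11. With the mean of each cell's CPM, the eWAT_DFAT over eWAT_SVF ratio no longer did, at -0.85.

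*Pdgfc*, the latent ligand of the alpha receptor (chromosome 3, 81036416 to 81214040), followed the depot in both kinds of culture. Its level was 38.3 CPM in iWAT_DFAT (37.4 to 39.2), 27.7 in eWAT_DFAT (27.0 to 28.5), 43.6 in iWAT_SVF (42.7 to 44.5) and 18.8 in eWAT_SVF (18.2 to 19.4). Both inguinal libraries were above both epididymal ones. The iWAT over eWAT ratio was 2.32-fold in SVF cells (log2 1.21, 1.16 to 1.27) and 1.38-fold in DFAT cells (log2 0.47, 0.41 to 0.52). *Pdgfc* and *Pdgfd* span 178 and 210 kb. Genes of 100 kb or more had a median log2 ratio of 0.29 between the DFAT libraries and of 0.31 between iWAT_DFAT and iWAT_SVF, against -0.02 and -0.035 for genes under 20 kb. It was 0.13 between the SVF libraries and 0.15 between the eWAT libraries, against 0.0059 and 0.0071 for the short genes. The study's methods state that introns were counted, with Cell Ranger 7.0.0. By its header the iWAT_SVF file was made with another version than the rest, so whether introns were counted alike in it could not be settled. This bears on the iWAT_SVF ratios of these long genes, while the median of 0.29 between the DFAT libraries does not involve that file. The part of the long-gene shifts in the ratios of the long members was not tested.

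*Pdgfa*, a ligand of the alpha receptor (chromosome 5, 138976014 to 138997370, minus strand), was lowest in the library with the most *Pdgfra*. It was 35.0 CPM in iWAT_DFAT (34.1 to 35.8), 70.4 in eWAT_DFAT (69.2 to 71.6), 67.4 in iWAT_SVF (66.3 to 68.6) and 69.5 in eWAT_SVF (68.3 to 70.7). Those of the other libraries were close to one another. The iWAT_DFAT level was 2.01-fold below eWAT_DFAT (log2 -1.01, -1.05 to -0.97), an interval that spans the 2-fold line, and 1.93-fold below iWAT_SVF (log2 -0.95, -0.99 to -0.90). Among stromal-like cells the DFAT depot ratio was -0.86, under 2-fold. Between eWAT_DFAT and eWAT_SVF the ratio was 0.018 (-0.017 to 0.053) and became -0.20 in stromal-like cells.

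*Pdgfb*, the ligand of both receptors (chromosome 15, 79995874 to 80014977, minus strand), was rare. It was counted at 0.681 CPM in iWAT_DFAT (0.567 to 0.811), 5.40 in eWAT_DFAT (5.07 to 5.74), 1.69 in iWAT_SVF (1.51 to 1.88) and 3.47 in eWAT_SVF (3.22 to 3.74). Both epididymal libraries were above both inguinal ones. The iWAT over eWAT log2 ratio was -2.99 (-3.27 to -2.72) in DFAT cells and -1.04 (-1.24 to -0.85) in SVF cells, where the gene stayed below 5 CPM. In stromal-like cells alone these ratios were -3.34 and -0.10, on 4 and 39 UMIs in the DFAT and 13 in each of the SVF libraries. These sums rested on few cells: a UMI was seen in 0.406% to 2.85% of the cells of a library.

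**Figure D2:**
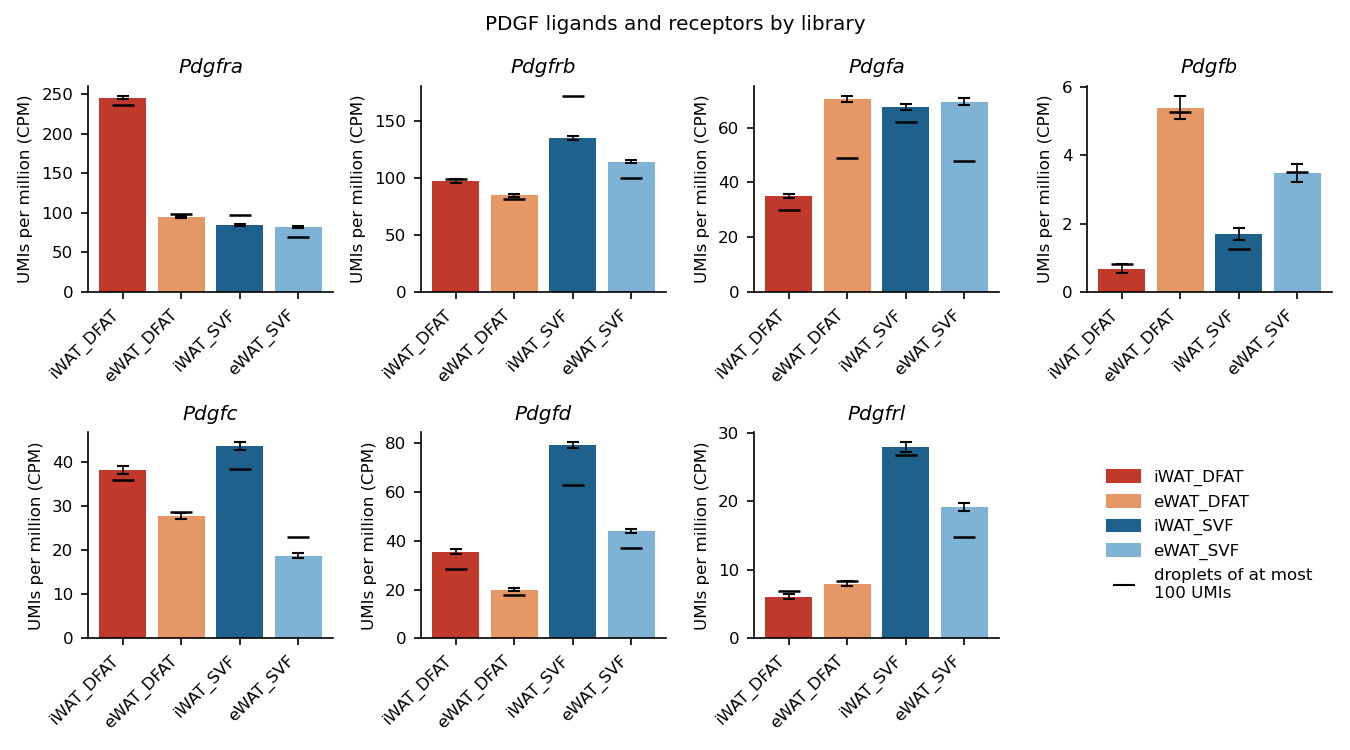
Level of each member (CPM, vertical axis from 0) in the 4 libraries. Bars are sums over cells with exact 95% Poisson intervals, and short black lines are the same quantity in droplets of 1 to 100 UMIs; Pdgfra is highest in iWAT_DFAT (246 CPM), and Pdgfrl and Pdgfd are lower in both DFAT libraries than in the SVF library of the same depot.

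Members past 2-fold were read against all genes at 5 CPM or more. Between iWAT_DFAT and eWAT_DFAT, 12.2% of 10384 genes passed (8.29% higher in iWAT_DFAT, 3.95% higher in eWAT_DFAT), and 3 of 7 members did: *Pdgfra* higher, *Pdgfa* and *Pdgfb* lower. Between iWAT_SVF and eWAT_SVF, 6.88% of 10135 genes passed (2.94% and 3.94%), and 1 of 6 members did, *Pdgfc*. For iWAT_DFAT against iWAT_SVF the share was 15.1% of 10426 genes (9.91% and 5.18%), and 3 of 6 members passed: *Pdgfra* higher, *Pdgfd* and *Pdgfrl* lower. For eWAT_DFAT against eWAT_SVF it was 13.1% of 10298 genes (6.44% and 6.67%), and 2 of 7 members passed, *Pdgfd* and *Pdgfrl*, both lower. The median log2 ratio of the members tested was 0.20, 0.39, -0.71 and 0.018 in these comparisons, against 0.091, 0.053, 0.088 and 0.070 over all genes tested. The comparisons share libraries, so their counts are not independent.

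**Figure D3:**
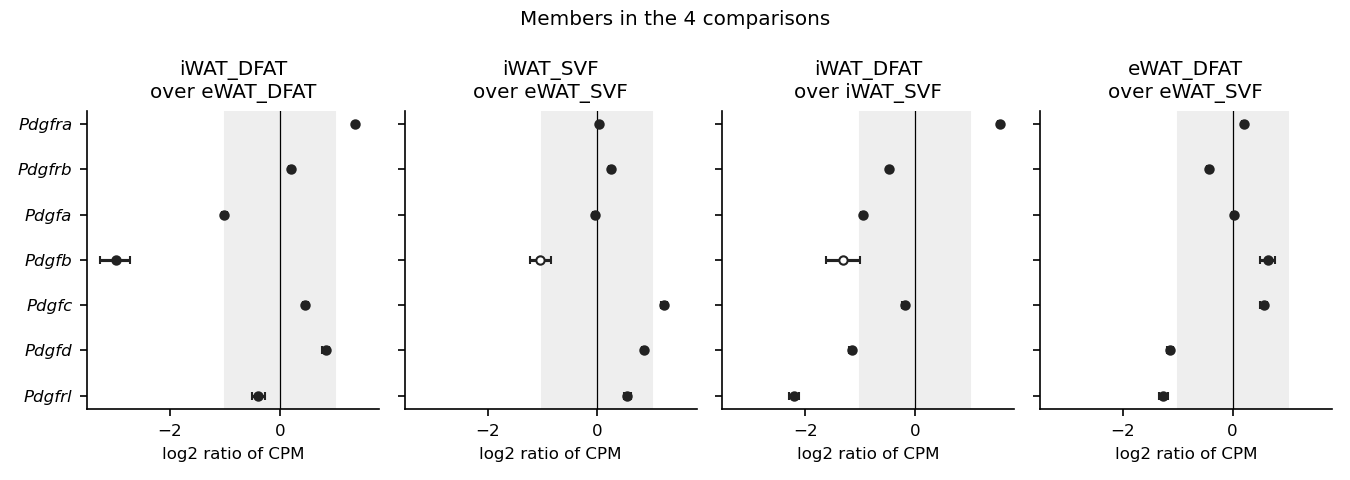
Log2 ratio of CPM (horizontal axis) of the 7 members in the 4 comparisons, with exact 95% intervals of counting error. The grey band marks ratios within 2-fold and open points mark ratios with both libraries below 5 CPM; Pdgfra lies to the right of the band in both comparisons of iWAT_DFAT, and Pdgfrl to its left in both comparisons of DFAT with SVF cells.

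The cells were then split by cluster, without using any member to form or name the clusters. Of 28262 cells, 26107 (92.4%) were stromal-like, with 567 mesothelial-like, 358 endothelial-like, 200 pericyte-like, 166 glial-like, 156 adipocyte-like and 27 immune-like cells, and 681 shallow cells stayed unnamed. The largest unnamed cluster, 15, held 222 cells and was led by *Myl1*, *Tnnc2* and *Ttn*. Most of the mesothelial-like cells (489) came from eWAT_SVF, most pericyte-like cells (177) from eWAT_DFAT, and most glial-like cells (146) from iWAT_SVF. The endothelial-like cells numbered 21, 144, 57 and 136 in iWAT_DFAT, eWAT_DFAT, iWAT_SVF and eWAT_SVF. A class therefore often rests on 1 library, and its values describe that culture.

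*Pdgfb* was almost absent from stromal-like cells and high in endothelial-like cells. Pooled over libraries, it was 293 CPM in endothelial-like cells (280 to 307) and 0.0945 CPM in stromal-like cells (0.0735 to 0.120), where 69 UMIs were counted in 26107 cells. The 1.27% of cells that were endothelial-like held 84.3% of all *Pdgfb* UMIs. Their level was 409 CPM in eWAT_DFAT (383 to 436), 257 in eWAT_SVF (237 to 278), 206 in iWAT_DFAT (165 to 254) and 166 in iWAT_SVF (142 to 191). Glial-like cells, of which 146 of 166 were in iWAT_SVF, gave 41.1% of the *Pdgfb* UMIs of that library, at 64.3 CPM (54.0 to 76.0). In eWAT_DFAT glial-like cells gave 0.898%, and in eWAT_SVF, which held none, mesothelial-like cells gave 5.98%. Of the 125 *Pdgfb* UMIs of iWAT_DFAT, 87 lay in 21 endothelial-like cells and 33 in 18 glial-like cells. Without the 6 named classes other than stromal-like, the library levels of *Pdgfb* were between 0.0220 and 0.222 CPM.

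*Pdgfd* had 2 sources. Endothelial-like cells held 273 CPM (260 to 286) against 44.5 in stromal-like cells (44.1 to 45.0), but through their number the stromal-like cells gave 93.7% of its UMIs. In eWAT_DFAT, where the stromal-like level was 16.4 CPM, endothelial-like cells gave 20.8% of the *Pdgfd* UMIs. The 2 endothelial-like clusters of eWAT_SVF differed: cluster 19 (leading genes *Cd93* and *Gpihbp1*) had 411 CPM of *Pdgfd* and 377 of *Pdgfb*, and cluster 25 (*Prox1* and *Nts*) had 40.9 and 145. *Prox1* is the defining transcription factor of lymphatic endothelium.

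*Pdgfa* was highest outside the stroma. Pericyte-like cells held 483 CPM (461 to 505), glial-like cells 456 (429 to 483) and endothelial-like cells 145 (135 to 155), against 57.4 in stromal-like cells (56.8 to 57.9). These pooled pericyte-like and glial-like intervals overlapped. In iWAT_SVF 10 pericyte-like cells held 692 CPM (570 to 831) and 146 glial-like cells 442 (414 to 471). In iWAT_DFAT, with 3 and 18 cells, the order was reversed and the intervals overlapped. The 2 glial-like cells of eWAT_DFAT had 158 CPM (72.1 to 299) against 460 (438 to 483) in its pericyte-like cells. Within libraries, endothelial-like *Pdgfa* was 258 CPM against 61.4 in stromal-like cells of eWAT_DFAT. It was 64.0 (49.9 to 80.9) against 63.2 in iWAT_SVF and 73.0 (62.6 to 84.6) against 70.7 in eWAT_SVF, without the pooled gap. The eWAT_SVF value joins unlike clusters: cluster 19 had 110 CPM (91.6 to 131) and cluster 25 had 38.5 (28.4 to 51.1). Of the 144 endothelial-like cells of eWAT_DFAT, 143 were in cluster 19. In eWAT_DFAT the pericyte-like cells, 2.74% of the library, gave 12.3% of its *Pdgfa* UMIs. Taking instead cells with UMIs of 3 or more pericyte markers and of no other class left 60 cells there, with 4.40% of these UMIs at 603 CPM (555 to 655). The same rule turned the order in iWAT_SVF, with 16 pericyte-like cells at 196 CPM (156 to 243) and 134 glial-like cells at 489 (457 to 523). It gave 315 CPM in 11 pericyte-like cells of eWAT_SVF and 274 in 8 of iWAT_DFAT. The cells named by cluster had 687 and 484 CPM there. At a clustering resolution of 0.5 no pericyte-like cluster was formed, and the adipocyte-like cluster held 282 cells of eWAT_DFAT, with 305 CPM of *Pdgfa* and 129 of *Pdgfrb* against 35.4 and 13.8 in the 108 adipocyte-like cells named here. *Pdgfc* in mesothelial-like cells was 44.7 CPM (41.0 to 48.7) against 17.5 (16.9 to 18.1) in the stromal-like cells of eWAT_SVF, but 23.2 (16.9 to 31.1) against 28.9 (28.1 to 29.7) in eWAT_DFAT, where the intervals overlapped. In iWAT_SVF it was 34.0 CPM (26.7 to 42.8) in glial-like and 44.3 (43.4 to 45.2) in stromal-like cells. Pooled levels of *Pdgfc* in endothelial-like and pericyte-like cells were 5.98 and 4.33 CPM.

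The receptors differed between the classes. Mesothelial-like cells had 179 CPM of *Pdgfra* (161 to 199) in eWAT_DFAT and 129 (123 to 136) in eWAT_SVF, above the 98.4 (97.0 to 99.9) and 81.3 (79.9 to 82.6) of the stromal-like cells of the same libraries. Pooled levels of *Pdgfra* in pericyte-like, glial-like and endothelial-like cells were 14.8 to 24.1 CPM. *Pdgfrb* was 202 CPM in pericyte-like cells (189 to 217), 112 in stromal-like cells (111 to 113) and 21.8 in mesothelial-like cells (19.4 to 24.4). After thinning, 42.3% of the mesothelial-like cells of eWAT_DFAT and 33.1% of those of eWAT_SVF had *Pdgfra* only, and 1.28% and 3.68% had *Pdgfrb* only. Among pericyte-like cells of eWAT_DFAT 45.2% had *Pdgfrb* only and 2.26% *Pdgfra* only. *Pdgfrl* was 20.5 CPM (19.8 to 21.1) in stromal-like and 5.02 (3.83 to 6.46) in mesothelial-like cells of eWAT_SVF, and 28.5 (27.7 to 29.2) in stromal-like and 6.06 (3.23 to 10.4) in glial-like cells of iWAT_SVF. In eWAT_DFAT the stromal-like level was 8.15 CPM (7.74 to 8.59) and the pericyte-like level 7.14 (4.62 to 10.5), with overlapping intervals.

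Endothelial-like cells, which *Pdgfra* does not usually mark, were taken as a comparison. Background and *Pdgfra* RNA of their own cannot be told apart in the shares below. Of the main endothelial-like cluster, 19, 15.8% of the cells were among the highest doublet scores, and their part in these shares was not tested. After thinning, 5.56% of endothelial-like cells of eWAT_DFAT, 3.51% in iWAT_SVF and 2.21% in eWAT_SVF had a *Pdgfra* UMI, against 30.9%, 27.3% and 26.1% of stromal-like cells. Median depth before thinning was 11392, 15919 and 14696 UMIs in the endothelial-like and 28594, 25616 and 28596 in the stromal-like cells. In iWAT_DFAT, whose free RNA held 236 CPM of *Pdgfra*, the share was 23.8% of 21 endothelial-like cells against 58.1% of stromal-like cells. Free RNA levels of *Pdgfra* in the other libraries were 70.0 to 98.1 CPM.

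**Figure D4:**
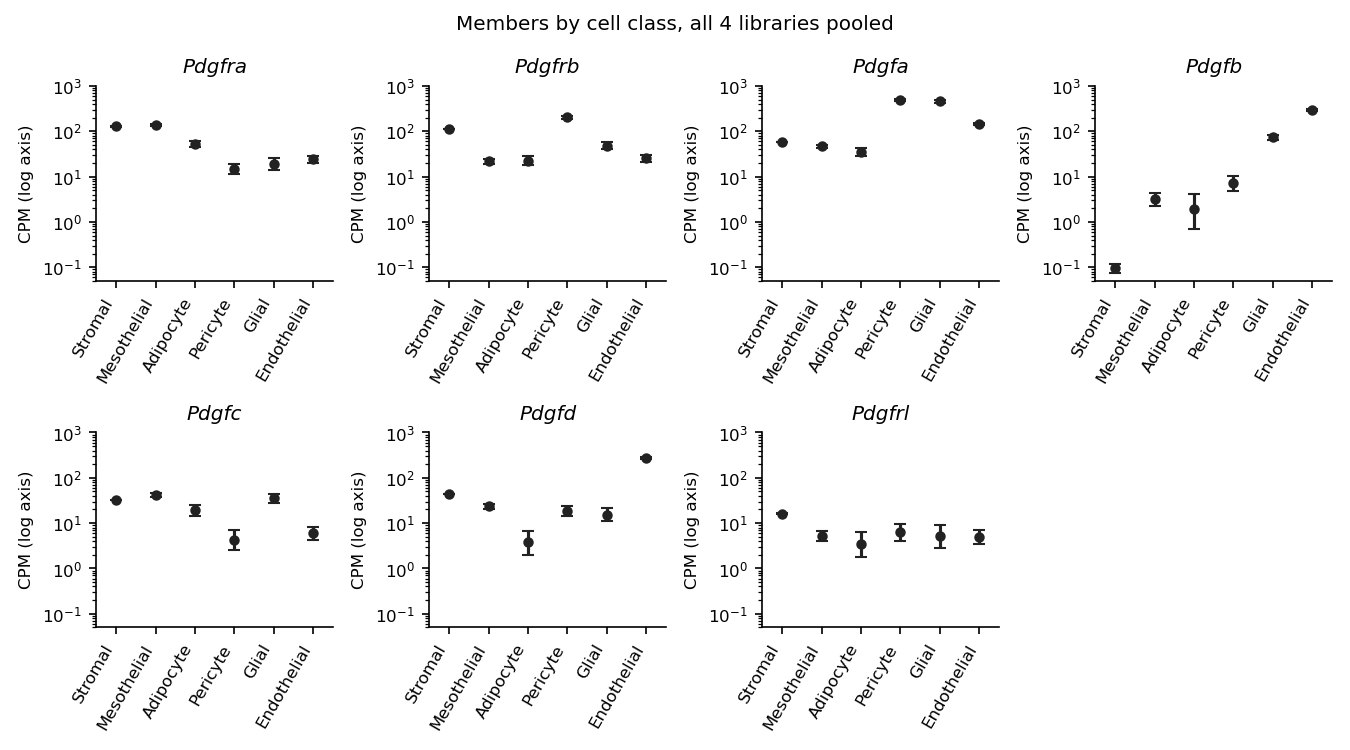
Level of each member (CPM on a log axis) in the 6 named classes with more than 50 cells, pooled over the 4 libraries, with exact 95% Poisson intervals. Pdgfb runs from 0.0945 CPM in stromal-like to 293 CPM in endothelial-like cells, Pdgfa peaks in pericyte-like and glial-like cells, and Pdgfrb is highest in pericyte-like cells.

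In stromal-like cells alone *Pdgfra* was 248 CPM in iWAT_DFAT and 98.4, 86.5 and 81.3 in eWAT_DFAT, iWAT_SVF and eWAT_SVF. The stromal-like cells of the libraries fell in part into different clusters, with most cells in clusters 0, 1, 2 and 3 in iWAT_DFAT, 3, 6, 7 and 20 in eWAT_DFAT, 5, 9, 11 and 17 in iWAT_SVF, and 9, 10, 11, 13 and 14 in eWAT_SVF. Clusters 9 and 11 were shared between the SVF libraries, with 484 and 575 cells from eWAT_SVF, and cluster 3 between the DFAT libraries. Over clusters of at least 50 cells *Pdgfra* ran from 91.4 to 371 CPM in iWAT_DFAT, from 83.4 to 155 in eWAT_DFAT, from 62.7 to 99.2 in iWAT_SVF and from 64.1 to 104 in eWAT_SVF. In 6 of the 7 stromal-like clusters of iWAT_DFAT the level was 164 CPM or more, above every stromal-like cluster of the other libraries. The nearest was cluster 16 of eWAT_DFAT, at 155 CPM (138 to 175). Its interval overlapped those of clusters 0, 3 and 16 of iWAT_DFAT, the last at 172 CPM (149 to 198).

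Cluster 1, with *Pi16*, *Saa3*, *Serpina3n* and *Cyp7b1* among its leading genes, held the most *Pdgfra*. Its 3176 cells in iWAT_DFAT had 371 CPM of *Pdgfra* (366 to 375) with 95.5 of *Pdgfrb*, so that 79.5% of their receptor UMIs were *Pdgfra*. The same cells had the lowest *Pdgfa* (25.3 CPM) and *Pdgfc* (19.8 CPM) of the stromal-like clusters of that library. The 176 cells of cluster 1 that came from eWAT_DFAT had 129 CPM of *Pdgfra* and 117 of *Pdgfrb*. *Pi16* is a known marker of early adventitial progenitors.

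Cluster 18, led by *Thbs4*, *Mmp9*, *Sparcl1* and *Igfbp5*, had the opposite profile. All of its 159 cells were in iWAT_DFAT. They had 91.4 CPM of *Pdgfra*, the lowest stromal-like value of that library, and the highest *Pdgfrb* (179), *Pdgfa* (198) and *Pdgfrl* (24.5), with 106 CPM of *Pdgfc* and 11.8 of *Pdgfd*. Only 33.8% of their receptor UMIs were *Pdgfra*, below the 62.7% to 79.5% of the other stromal-like clusters there. *Pcsk5*, a ligand-processing protease, and *Heyl*, a Notch target, were among its leading genes.

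Leaving out the rare *Pdgfb*, the stromal-like clusters of the SVF libraries had their widest range, as a ratio, in *Pdgfd*. *Pdgfd* ran from 33.4 CPM in cluster 11, which is led by mitotic genes such as *Cdc20* and *Plk1*, to 144 in cluster 14 and 114 in cluster 17 of iWAT_SVF. In eWAT_SVF it ran from 20.2 CPM in cluster 11 to 56.9 in cluster 14. *Pdgfa* was highest in cluster 10 of eWAT_SVF, at 107 CPM against 52.3 to 73.0 in its other stromal-like clusters. *Pdgfrl* was highest in cluster 17 of iWAT_SVF, at 44.3 CPM.

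**Figure D5:**
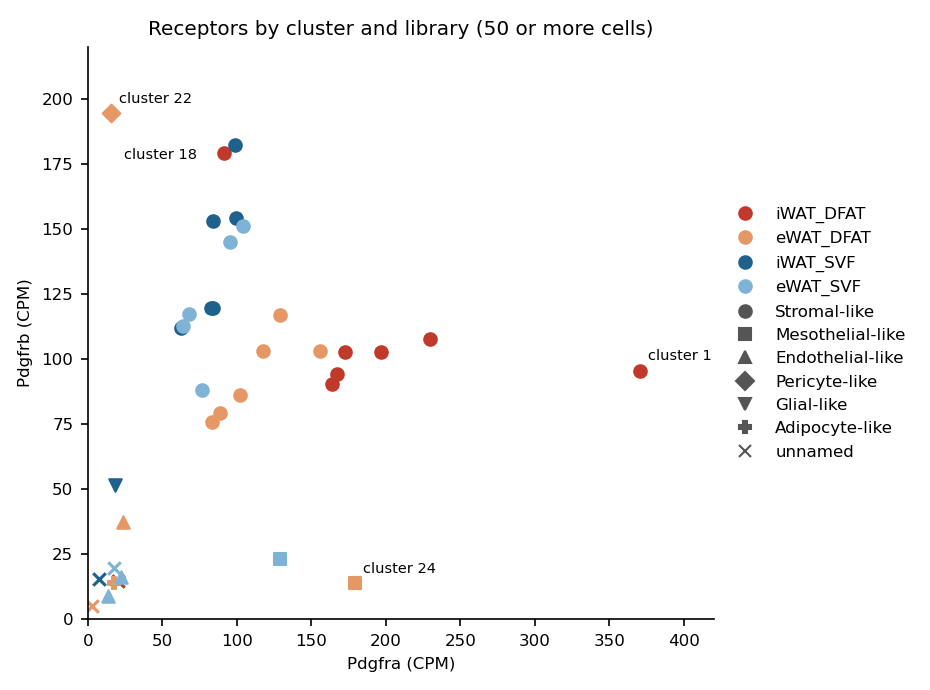
Pdgfra (horizontal axis, CPM) against Pdgfrb (vertical axis, CPM) in each cluster of each library with 50 or more cells; colour gives the library and shape the class. Stromal-like clusters of iWAT_DFAT lie to the right of those of the other libraries except for cluster 18, pericyte-like cells (cluster 22) lie at the top left and mesothelial-like cells (cluster 24) at the bottom.

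PDGF signalling drives proliferation of mesenchymal cells, so cells with UMIs of 3 or more of 12 cycling markers after thinning were compared with cells without any. The split over all cells mixes classes, so the ratio in stromal-like cells alone, added after the first values were seen, is given here for each member. *Pdgfd* was lower in cycling stromal-like cells of each library, by log2 ratios of -0.55, -0.57, -0.39 and -0.29 in iWAT_DFAT, eWAT_DFAT, iWAT_SVF and eWAT_SVF. Over all cells the eWAT_DFAT ratio was -0.98, in the library where endothelial-like cells gave 20.8% of the *Pdgfd* UMIs. *Pdgfrl* was also lower in all 4 (-0.94, -0.38, -0.49 and -0.58), as was *Pdgfa* (-0.15, -0.099, -0.31 and -0.086). *Pdgfra* was 198 CPM in the 2655 cycling stromal-like cells of iWAT_DFAT and 319 in the 2975 without a cycling marker (log2 -0.69, -0.72 to -0.66). This split pools clusters of unlike *Pdgfra*. Cluster 2, with all 12 cycling markers raised, had 230 CPM there, below cluster 1 (371) and above clusters 0 (167), 7 (196), 16 (172) and 18 (91.4). Cluster 3, with 3 raised, had 164 CPM. The part of the cluster mix in the ratio was not tested. The *Pdgfra* ratio was -0.19 in eWAT_DFAT, 0.16 in iWAT_SVF and 0.11 in eWAT_SVF, where it was -0.014 over all cells. *Pdgfrb* lay between -0.10 and -0.0035. *Pdgfc* was higher in cycling cells of iWAT_DFAT (0.57) and at 0.12, 0.012 and 0.13 in the other libraries. Over all cells its eWAT_SVF ratio was -0.19, so the sign of that value depends on the cells used. *Pdgfb* had 0 to 16 UMIs in a set of stromal-like cells, too few for a direction. The cycling cells were deeper, with medians of 26715 against 19822 UMIs in iWAT_DFAT. The library levels of the 12 cycling markers themselves differed by less than 2-fold in every comparison.

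Genes whose levels ran most like a member over 36 combinations of library and cluster with at least 50 cells were ranked by Pearson's r of log2(CPM + 1) among 10750 genes. The combinations share libraries and depth, so r is a description. *Pdgfra* ran with *Tiam1* (r = 0.95), *Egfr* (0.91) and *Gas1* (0.91), and over the 24 stromal-like combinations r was 0.85, 0.76 and 0.79. *Pdgfrb* ran with *Mrc2* (0.95, and 0.83 within the stroma), *Col12a1* (0.93 and 0.63) and *Pcdh19* (0.93 and 0.54). *Pdgfa* ran with *Igfbp7* (0.89 and 0.76), *Aff3* (0.84 and 0.60) and *Specc1* (0.84 and 0.42). *Pdgfb* followed the endothelial genes *Cldn5* (0.88) and *Cd93* (0.87) and also *Slc35f1* (0.89), and within the stroma these were -0.12, -0.27 and 0.19. For *Pdgfc* the closest were *Zfhx4* (0.90 and 0.78), *Bnc2* (0.88 and 0.65) and *Emx2* (0.86 and 0.55), and for *Pdgfd* they were *Ablim1* (0.85 and 0.75), *Nox4* (0.85 and 0.74) and *Swap70* (0.85 and 0.59). *Pdgfrl* ran with *Ddit3*, a stress-response transcription factor, at 0.92 overall and 0.92 within the stroma, and with *Cyb5r1* (0.84 and 0.89) and *Gpc4* (0.84 and 0.86). Between members over all 36 combinations, *Pdgfra* was closest to *Pdgfc* (r = 0.76) and *Pdgfrb* to *Pdgfrl* (0.66), with *Pdgfc* at the same value. For pairs of members r was not computed within the stroma. The stromal-like cluster highest in *Pdgfra* was the lowest in *Pdgfc* in iWAT_DFAT (cluster 1, 371 and 19.8 CPM) and in eWAT_DFAT (cluster 16, 155 and 16.6). In both SVF libraries cluster 13 was the lowest in both genes.

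The partners of the pathway were read from lists of proteases, binding proteins, transducers, negative regulators and early response genes. Among 6 proteases tested, *Pcsk5* was 126 CPM in iWAT_DFAT, 15.5 in eWAT_DFAT, 33.6 in iWAT_SVF and 21.996 in eWAT_SVF. It was the 1 of 6 past 2-fold between the DFAT libraries (log2 3.02), where 12.2% of all genes passed. *Plat*, the tissue plasminogen activator that cleaves PDGF-C, was 33.9, 20.6, 13.9 and 18.9 CPM in the same order and passed 2-fold between iWAT_DFAT and iWAT_SVF (log2 1.29). *Plau*, the urokinase that cleaves PDGF-D, was 8.38, 12.6, 8.65 and 14.2 CPM and passed in no comparison. *Pcsk6* was highest in eWAT_SVF, at 28.4 CPM against 9.57 to 13.1, and passed 2-fold against iWAT_SVF and eWAT_DFAT.

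Of the co-receptors and binding proteins, *Cd44*, a hyaluronan receptor, was 697, 272, 241 and 134 CPM in iWAT_DFAT, eWAT_DFAT, iWAT_SVF and eWAT_SVF. It was past 2-fold between the DFAT libraries and in both comparisons of DFAT with SVF cells. *Nrp2* and *S1pr1* were higher in DFAT cells of both depots, with log2 ratios of 1.69 and 2.66 in iWAT and 1.13 and 1.80 in eWAT. *Sparc* and *Thbs1*, matrix proteins that bind PDGF, were lower in iWAT_DFAT than in iWAT_SVF, by log2 ratios of -1.06 and -1.10. Of 8 list genes tested between the SVF libraries none passed 2-fold, where 6.88% of all genes did. The counts past 2-fold were 1 of 10 between the DFAT libraries (12.2% of all genes), 5 of 10 between the iWAT libraries (15.1%) and 4 of 10 between the eWAT libraries (13.1%).

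Of 33 transducers 4 passed 2-fold between the DFAT libraries, where 12.2% of all genes did, and 5 between the iWAT libraries, where 15.1% did, so both counts were at the share of all genes. Between the DFAT libraries the transcription factors *Stat3* (log2 1.37) and *Stat5a* (2.11) were among the genes higher in iWAT_DFAT, and *Pik3cb*, a PI3-kinase catalytic subunit, was lower (-1.86). Against iWAT_SVF these genes stood at 1.05, 2.09 and -1.76, and *Slc9a3r1* was also higher, at 2.05. *Slc9a3r1*, a scaffold protein that binds the receptors, was 43.2, 23.7, 10.4 and 105 CPM, and it was the 1 of 32 that passed between the SVF libraries (-3.33) and between the eWAT libraries (-2.15), where 6.88% and 13.1% of all genes passed. The list's median log2 ratio was 0.12, -0.040, 0.037 and -0.14 in the 4 comparisons, in the order in which the members past 2-fold were given.

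The negative regulators split. Between the DFAT libraries, *Cblb*, a ubiquitin ligase (log2 1.05), the phosphatase *Ptprj* (1.57) and *Socs3* (2.09) were higher in iWAT_DFAT, and the ERK-pathway inhibitors *Dusp4* (-2.08), *Spry1* (-1.02) and *Spry4* (-1.81) were lower, out of 19, with 8.29% and 3.95% of all genes in these directions. Of 18 tested in iWAT_DFAT against iWAT_SVF, 6 were higher (9.91% of all genes) and 1 was lower (5.18%), *Spry1*, at -2.89. In eWAT_DFAT against eWAT_SVF 6 of 19 were higher (6.44%) and 2 lower (6.67%), *Spry1* (-1.98) and *Socs3* (-1.01). Between the SVF libraries 1 of 19 passed, *Socs3*, at -1.13, where 6.88% of all genes did. *Spry1* stood at 6.97 and 14.2 CPM in the DFAT libraries and at 51.7 and 55.8 in the SVF libraries.

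Early response genes are induced by growth factors and by many other stimuli. In iWAT_DFAT 16 of 20 were more than 2-fold above iWAT_SVF (median log2 2.14), where 9.91% of all genes were, and 8 of 20 were above eWAT_DFAT (median 0.54), where 8.29% of all genes were. The largest ratios of DFAT over SVF cells were those of the chemokine genes *Cxcl1* (log2 4.57 in iWAT and 5.62 in eWAT) and *Ccl2* (3.45 and 4.67) and, in iWAT, of *Egr3* (4.69). *Cxcl1* was 1408 CPM in iWAT_DFAT, 1059 in eWAT_DFAT, 59.2 in iWAT_SVF and 21.5 in eWAT_SVF, and *Ccl2* was 2816, 3031, 257 and 119 CPM. *Fos* was 493 CPM in iWAT_DFAT, 58.4 in eWAT_DFAT, 114 in iWAT_SVF and 204 in eWAT_SVF. *Egr1* was 826, 168, 172 and 149 CPM, *Fosb* was 188, 17.96, 29.7 and 33.7 CPM, and *Egr3* passed in both comparisons with SVF cells, by 4.69 in iWAT and 1.87 in eWAT. *Klf5* went the other way and was 2-fold or more lower in the first library of every comparison. In eWAT_DFAT 9 of 20 were above eWAT_SVF (6.44% of all genes) and 2 below it (6.67%), *Fos* (-1.81) and *Klf5* (-1.26). Between the SVF libraries 3 of 19 were higher in iWAT_SVF (2.94% of all genes), the chemokines *Ccl2*, *Ccl7* and *Cxcl1*. The median mitochondrial share and the depth of iWAT_DFAT stood apart as given above, and their part in these levels was not tested.

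Of 6 related receptor kinases, *Flt1* and *Csf1r* reached 5 CPM in a library. *Kit* and *Flt3* stayed below 1 CPM in every library. *Flt1*, a VEGF receptor, was 3.08, 19.1, 10.5 and 33.7 CPM, with the epididymal library higher in both culture types, as for *Pdgfb*. Of the related ligands, *Vegfd* was 261, 39.6, 154 and 750 CPM, so that its depot order turned between DFAT cells (log2 2.72) and SVF cells (-2.28). *Kitl* was 127 and 111 CPM in the DFAT libraries and 60.8 and 32.2 in the SVF libraries, past 2-fold in both depots.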

How the data were processed

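Single-cell RNA sequencing UMI counts of 4 libraries, 1 per group as the labels give them, were analysed. The deposited matrices hold raw counts that the authors obtained by aligning to mm10 with Cell Ranger, before any filter. The processing notes name Cell Ranger 7.0.0, with introns counted per the study's methods. The file headers name 7.1.0 for 3 libraries and 4 for iWAT_SVF. CellBender, DoubletFinder and Harmony were not run. Doublets were left in, since Scrublet called at most 0.0445% of a library's cells, and the highest scores were removed as an alternative.

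Counts were summed over cells and scaled to 1000000 UMIs (CPM). Intervals are exact (Poisson, Clopper-Pearson or conditional binomial, 95%) and cover counting error only, and a gene without a UMI is limited to at most 3 UMIs, or 0.0150 to 0.0163 CPM of a library. Each cell was thinned once to 4000 UMIs for shares of cells. Ratio code was checked on simulated data.

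Unthinned counts were scaled to 10000 per cell and centred per library on 2003 variable genes without the members. Leiden clusters (resolution 1) were formed on 30 components and 20 neighbours. A cluster was named when at least as many markers of a list were raised as were not (2-fold above the other cells, with a UMI in 10% of its cells), and 3 markers were among its 10 leading genes. Otherwise it was stromal-like when 6 of 12 stromal markers had a UMI in 50% of cells. These limits were set after the clusters were seen, and naming used unthinned counts, so depth was not equal between clusters. Clusters 5, 6, 10 and 13 have 1 marker of another class and no stromal marker among their leading genes.

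The members and lists were chosen with earlier results of these data known. Genes named are the members, per pathway list genes from the up to 4 past 2-fold with the largest ratios in each comparison (not all are printed), and the 3 genes most like each member. *Plau*, *Sparc*, *Kit*, *Flt3*, *Csf1r* and cluster leading genes were named after their values were seen. Positions are from GENCODE M21 (GRCm38). The work used scanpy 1.11.5 and python-igraph 0.11.9 for clusters, scipy 1.17.1 for intervals, matplotlib 3.10.9 for plots, and pandas 2.3.3, numpy 2.4.6 and scikit-learn 1.9.0 in Python 3.11.15. Alternatives changed cell limits, doublets, cell sets, scaling, free RNA, thinning and the CPM minimum. A gene of the pathway lists is not reported here.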

Additional observations from a re-analysis of the deposited data

Results flagged for a closer look

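The direction of 3 member differences was not shared between groups, and with 1 library per group none of these was tested. *Pdgfb* was lower in DFAT than in SVF cells in iWAT (log2 -1.31) and higher in eWAT (0.64), a difference of -1.94. *Pdgfc* was lower in DFAT cells in iWAT (log2 -0.19) and higher in eWAT (0.56), a difference of -0.75. *Pdgfrl* was lower in iWAT than in eWAT among DFAT cells (log2 -0.39) and higher among SVF cells (0.54), a difference of -0.93. In stromal-like cells alone the paired ratios were -1.60 and 1.63 for *Pdgfb*, -0.20 and 0.72 for *Pdgfc*, and -0.41 and 0.48 for *Pdgfrl*. The pairs of *Pdgfc* and *Pdgfrl* were of opposite sign in these cells as well. That of *Pdgfb* rested on 4 to 39 UMIs per library, and the 4 and 13 UMIs in iWAT were too few for a direction.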

How the results depend on the processing

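With 1 library per group, differences between cultures were not measured. No paired analysis was made, since each group holds 1 library and the labels give no replicate numbers. Between the DFAT libraries the count of members past 2-fold was 2 in place of 3 under 5 alternatives, and the members differed. *Pdgfa* was under 2-fold without the highest doublet scores (-0.98). *Pdgfb* was under the minimum level in cells with 15000 to 35000 UMIs and at a minimum of 20 CPM. In stromal-like cells and without the 6 other named classes both were lost and *Pdgfd* passed (1.11 in each). Other counts of members differed by over 1.5 times as follows. They were 2 in place of 1 for iWAT_SVF against eWAT_SVF at a minimum of 1 CPM, and 1 in place of 2 for eWAT_DFAT against eWAT_SVF with the mean of each cell's CPM and at a minimum of 20 CPM. The recomputed log2 ratios changed sign 6 times, each for a reported size under 0.05. These were *Pdgfra* between the SVF libraries (-0.027 with the mean of each cell's CPM, -0.032 with median ratio scaling), *Pdgfa* between the SVF libraries (0.046 with the mean), and *Pdgfa* between the eWAT libraries (-0.20 in stromal-like cells, -0.057 with median ratio scaling, -0.20 without the 6 other named classes, an alternative chosen after seeing the data). *Pdgfb* ratios shifted by up to 1.002, without the 6 other named classes, and those of the other members by up to 0.38 under the alternatives run.

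The *Pdgfra* share of receptor UMIs moved to 72.5% in iWAT_DFAT in cells with 15000 to 35000 UMIs and to 68.3% as the mean of each cell's share. In eWAT_DFAT it was 53.5% in stromal-like cells, at that depth (53.5%) and without the 6 classes (53.5%), and 51.5% as the mean. It was 37.8% in iWAT_SVF as the mean, and in eWAT_SVF 39.7% in stromal-like cells and 39.8% without the 6 classes. The share of cells with both receptors was 1.69%, 0.309%, 0.822% and 0.801% (iWAT_DFAT, eWAT_DFAT, iWAT_SVF, eWAT_SVF) with 2 or more UMIs of each, and 78.7%, 66.2%, 66.9% and 64.6% without thinning. It was 8.93% in eWAT_DFAT and 10.2% in eWAT_SVF in stromal-like cells, 11.9% in iWAT_SVF in cells with 15000 to 35000 UMIs, and 9.92% in eWAT_SVF without the 6 classes. The cause of these shifts was not tested.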

Other observations

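*Csf1r*, the receptor of macrophage colony-stimulating factor and an immune marker, starts 15537 bases beyond the end of *Pdgfrb* on the same strand (GRCm38). It was read at 11.1 to 18.4 CPM in every library although 27 of 28262 cells were immune-like. Stromal-like cells held 96.6% of its UMIs, at 14.0 CPM (13.7 to 14.3), against 325 CPM in immune-like cells (278 to 377). The other named classes lay between 1.46 CPM in endothelial-like and 6.37 CPM (4.12 to 9.41) in pericyte-like cells. The source of these UMIs was not tested.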
